A study of Macaca fascicularis with 10 samples.

Results

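The genes described here are chromatin regulators, chosen by name: every row of the deposited table whose symbol begins like a family of histone-modifying enzymes, DNA methylation enzymes, histone readers or nucleosome remodellers (such as KMT, SETD, EZH, EHMT, KAT, EP300, CREBBP, KDM, HDAC, SIRT, DNMT, TET, MBD, BRD, CBX, PHF, SMARC, CHD and ARID), with KDM5C and KDM6A left out. That gave 84 of 7229 genes. RNA came from the dorsal raphe nucleus, the brainstem region that holds most serotonin neurons, of 10 female cynomolgus macaques (Macaca fascicularis) whose mothers and fathers are named in the labels. Daughters 1, 7 and 8 share a father, daughters 4 and 5 share another, and daughters 6 and 10 share a mother. The labels give all daughters 1 group, with no treatment, genotype or age, so every comparison sets the paternal allele of a gene against the maternal allele in the same animal. Values are paternal shares: of the reads of a gene that could be given to an allele, the percent in the column labelled paternal. A share of 50% means equal alleles.

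Chromatin regulators set how tightly DNA is packed and which genes can be read. Histone methyltransferases and acetyltransferases place marks on histone tails, demethylases and deacetylases remove them, readers bind the marks, and remodellers use ATP to move or evict nucleosomes. Many of these genes are sensitive to dose: loss of 1 copy of genes such as EHMT1, KMT2D, CREBBP, EP300, CHD7 and CHD8 causes developmental disorders in people. The roles given below are known mainly from human and mouse. For counts by role, each gene was placed by the start of its symbol alone. A group can therefore hold genes with another function, and BRD7 and BRD9, subunits of remodelling complexes, count as readers.

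Depth ranged from 30090 allelic reads in daughter 1 to 999471 in daughter 6. Allelic reads can come only from positions where a daughter's alleles differ, so the daughters in which a gene could be measured vary from gene to gene and read numbers do not rank expression. With a minimum of 10 allelic reads, 77 of the 84 genes could be measured in 1 or more daughters, 327 measurements in all, from 3 genes in daughter 1 to 52 in daughter 4. The 7 others (ARID3A, ARID3C, CBX2, CBX8, DNMT3B, EZH2 and SETD6) stayed under 10 reads in every daughter. No gene was measured in all 10 daughters, 6 were in 9 daughters (among them BRD9, CHD5, EHMT1, KDM4C and KMT2C), and 10 were in 1. Of the markers of the labelled tissue, TPH2, which makes serotonin, had 10 or more reads in 7 daughters, while FEV was not analysed here. GABA, glutamate, oligodendrocyte precursor, endothelial and choroid plexus genes also had reads, so the tissue is mixed and the shares are averages over cell types.

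The chromatin regulators were read about equally from both parents. Pooled over genes and daughters, 12089 of 24010 reads were paternal, a share of 50.3%. The median measurement was 50%, as over all genes. Of the 327 measurements, 215 (65.7%) lay between 40% and 60%, against 69.8% of 27887 measurements of all genes. The median distance from 50% was 6.41 percentage points for the chromatin regulators and 6.20 for all genes. The 95% Wilson interval, which covers counting error only, excluded 50% in 49 measurements (15.0%), 23 of them on the paternal and 26 on the maternal side, against 20.1% of all measurements. The median measurement rested on 38 reads for chromatin regulators and on 54 for all genes. Intervals exclude 50% more easily with more reads, and the difference between the gene sets was not tested.

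Within each daughter the pooled share of the chromatin regulators stayed near 50%. It was lowest in daughter 10, at 48.6% of 1913 reads (95% Wilson interval 46.4 to 50.9), and highest in daughter 8, at 53.8% of 1451 reads (51.3 to 56.4). The interval included 50% in the other daughters, among them daughter 6, the deepest, with 48.8% of 4939 reads (47.4 to 50.2). In daughter 8 the paternal excess was spread over 16 genes above 50% and 11 below. Among those above was HDAC4, at 69% of 100 reads.

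No chromatin regulator was called unequal between the parents across daughters. Testing needed at least 10 reads in at least 5 daughters, which left 31 genes, and 0 of these passed edgeR's quasi-likelihood test with the daughter as block at a Benjamini-Hochberg adjusted p of 0.05, where 0% of 2981 genes were called (0 of 2981). At an unadjusted p under 0.05 there were also 0 of the 31, against 93 of 2981 genes (3.12%). DESeq2 and limma likewise called 0 of the 31 and 0 of all genes, and each had 0 of the 31 at an unadjusted p under 0.05, where DESeq2 had 2.08% and limma 3.66% of all genes (62 and 109 of 2981). Fitted log2 ratios of paternal over maternal reads ran from -0.31 for KDM2B to 0.56 for KAT8, with 17 above 0, 14 below and a median of 0.03, against -0.01 over all genes tested. The 31 means of the paternal share ranged from 43.7% to 60.4%. The test asks for an average shift to the same parent over daughters and is not built to find a gene that is unequal in a single animal. Each daughter is a separate animal, so the spread between daughters includes differences between animals as well as technical error.

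**Figure D1:**
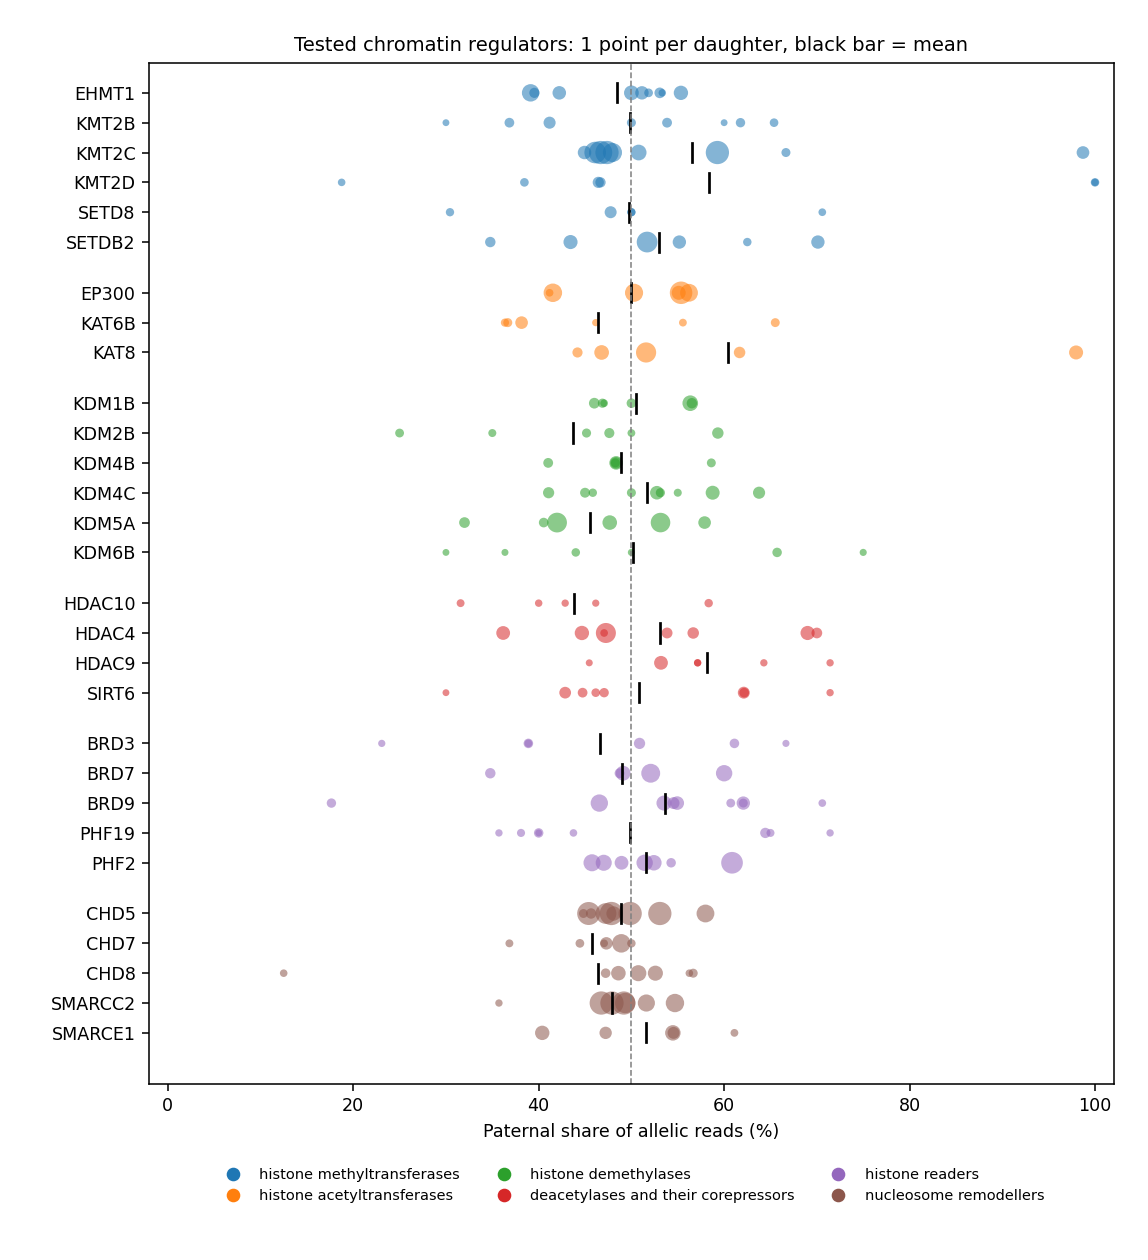
Paternal share (percent, horizontal axis) of 29 of the 31 tested chromatin regulators, grouped by role. Each point is 1 daughter with 10 or more reads, its area grows with read number up to 300 reads, and black bars are means over daughters. Most points lie between 40% and 60%, the means lie between 43.7% and 60.4%, and KMT2C, KMT2D and KAT8 have points near 100%.

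Among the histone methyltransferases, 17 of 19 genes were measured and 7 were tested, with 0 called. KMT2C, which places the H3K4 mark at enhancers, had the most reads of them, 2221 over 9 daughters. Daughter 1 had 66.7% of 30 reads, daughter 3 had 47.4% of 437, daughter 4 had 59.3% of 496, daughter 5 had 46.7% of 512 and daughter 6 had 46.1% of 256. Daughter 7 had 98.7% of 77 reads, daughter 8 had 44.9% of 89, daughter 9 had 48.0% and daughter 10 had 50.8% of 128. Daughter 7 stood far above the other 8, and in daughter 4 the interval of 54.9 to 63.5 excluded 50%. The mean was 56.5% ± 17.4 (SD, n = 9), and 51.2% ± 7.70 (SD, n = 8) without daughter 7. In human, parts of KMT2C have near-identical copies elsewhere in the genome. Whether such copies affect its allelic reads here was not tested.

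EHMT1, which places the repressive H3K9 mark, had shares from 39.1% to 55.3% with a median of 51.1% over 9 daughters and a mean of 48.4% ± 6.31 (SD, n = 9). Daughters 2, 3 and 4 lay between 39.1% and 42.2%, the other 6 between 50% and 55.3%. In daughter 3 the interval, 31.9 to 46.8 around 39.1% of 161 reads, excluded 50%. The H3K4 methyltransferase KMT2B averaged 49.9% ± 12.8 (SD, n = 8), with its lowest value, 30% of 10 reads, in daughter 10 and its highest, 65.4% of 26, in daughter 9.

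SETDB2, an H3K9 methyltransferase, was unequal on both sides. Daughter 3 had 62.5% of 24 reads, daughter 4 had 34.8% of 46, daughter 5 had 70.1% of 87, daughter 6 had 51.7% of 236, daughter 8 had 55.2% of 87 and daughter 10 had 43.4% of 99. The intervals of daughter 4 (22.7 to 49.2) and daughter 5 (59.8 to 78.7) excluded 50% in opposite directions, and these daughters share a labelled father. SETD3, an actin histidine methyltransferase despite its family name, had 53.1%, 47.8%, 58.9% and 50.7% in daughters 2, 4, 5 and 9.

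The acetyltransferases had the largest median distance from balance of the 7 roles, 8.82 points. All 6 genes were measured and 3 were tested, with 0 called. Of their 27 intervals 7 (25.9%) excluded 50%, 2 on the paternal and 5 on the maternal side, against 20.1% of all measurements. The difference was not tested. EP300, a general coactivator, had shares of 55.1%, 56.2%, 50.3% and 55.4% in daughters 2, 4, 5 and 6, each on 98 to 280 reads. Daughters 7 and 10 had 41.2% of 17 and 41.5% of 183 reads. The interval of daughter 10, 34.6 to 48.8, excluded 50%. Its close relative CREBBP had 40%, 44.4% and 46.4% in daughters 4, 5 and 6 and 86.7% of 15 reads in daughter 10. The H3 acetyltransferase KAT6B had a median of 42.2%, between 36.4% in daughter 4 and 65.5% in daughter 5, and a mean of 46.4% ± 11.9 (SD, n = 6). KAT6A, its relative, was lowest in daughter 9 (27.3% of 11 reads), with 30.7% of 75 in daughter 6 (21.4 to 41.8), and highest in daughter 2 (73.3% of 15).

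Demethylases lay close to balance in most measurements. All 8 were measured and 6 tested, with 0 called. Between 40% and 60% lay 33 of their 42 measurements (78.6%), against 69.8% of all measurements, a difference that was not tested. KDM4C, which removes H3K9 methylation, averaged 51.7% ± 7.11 (SD, n = 9), with a median of 52.7%, its minimum of 41.1% in daughter 3 and its maximum of 63.8% in daughter 6 (52.0 to 74.1). KDM5A, which removes H3K4 methylation, had a mean of 45.5% ± 9.34 (SD, n = 6), and daughters 3 and 4, at 32% of 50 and 42.0% of 212 reads, had intervals below 50%. Daughter 8 had 57.9% of 76. KDM1B, an H3K4 demethylase, had 46% to 56.5% over 6 daughters, with a mean of 50.5% ± 4.82 (SD, n = 6). KDM2B, an H3K36 demethylase that recruits a Polycomb complex to CpG islands, had the lowest mean of the tested genes, 43.7% ± 12.1 (SD, n = 6), and its extremes were daughter 9 (25% of 28 reads) and daughter 6 (59.3% of 59). KDM6B, which removes the Polycomb mark H3K27me3, was measured thinly, with 10 to 35 reads in each of 6 daughters and shares from 30% to 75%.

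Of the deacetylases, sirtuins and corepressors, all 12 were measured and 5 tested, with 0 called. HDAC4, a neuronal class IIa deacetylase, was far from balance on both sides. Daughters 6 and 8 had 70% of 50 and 69% of 100 reads, daughter 10 had 36.2% of 94, and the share lay between 44.7% and 56.7% in the other 5 daughters. The intervals of daughters 6 (56.2 to 80.9), 8 (59.4 to 77.2) and 10 (27.2 to 46.2) excluded 50%. Its mean was 53.1% ± 11.8 (SD, n = 8). HDAC9, of the same class, lay above 50% in 5 of 6 daughters, from 45.5% to 71.4%, mostly on 11 to 14 reads. In daughter 6, with 94 reads, it had 53.2%. It had the smallest p of the 31 genes and was not called (mean 58.1% ± 8.96, SD, n = 6, edgeR, adjusted p = 1). HDAC10, a polyamine deacetylase, had 31.6% to 58.3% and a mean of 43.8% ± 9.77 (SD, n = 5). The nuclear sirtuin SIRT6 averaged 50.8% ± 13.4 (SD, n = 8), between 30% and 71.4%. The mitochondrial sirtuin SIRT3 gave 50% of 36 reads in daughter 4, while daughter 9 had 78% of 50 (64.8 to 87.2) and daughter 10 had 15.4% of 13 (4.33 to 42.2).

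DNA methylation genes were the thinnest group. Of 7 genes, 6 were measured, 0 had reads enough for the test and the 13 measurements held 362 reads. DNMT3A, the methyltransferase active in neurons, had 58.1% and 51.6% of 31 reads each in daughters 4 and 5 and 9.09% of 11 reads in daughter 7 (1.62 to 37.7). TET3, which oxidises methylcytosine, had 54.5%, 50% and 38.5% in daughters 3, 4 and 5. MBD5, named for a domain like that of methyl-CpG binding proteins, had 51.9% of 54 reads in daughter 4, while daughter 10 had 28.1% of 32. The intervals of DNMT3A in daughter 7 and of MBD5 in daughter 10 were the only ones of this group that excluded 50%.

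Among the readers, 17 of 19 genes were measured and 5 tested, with 0 called. PHF2, a PHD finger protein that binds H3K4me3, was steady, with 45.8% to 54.3% in 6 daughters and 60.9% of 258 reads in daughter 5 (54.8 to 66.6). BRD9, a bromodomain subunit of a BAF remodelling complex, had 46.5% to 70.6% in 8 daughters and 17.6% of 34 reads in daughter 8 (8.35 to 33.5). In daughter 10, with 62.1% of 87 reads, the interval also excluded 50% (51.6 to 71.5), on the other side. Its mean was 53.6% ± 15.1 (SD, n = 9). BRD7, a subunit of the related PBAF complex, had 49.1%, 52.1% and 48.7% in daughters 2, 5 and 8. Daughter 4 had 60% of 140 reads and daughter 7 had 34.8% of 46. Daughters 4 (51.7 to 67.7) and 7 (22.7 to 49.2) lay on opposite sides of balance. The Polycomb-associated PHF19 averaged 49.8% ± 14.5 (SD, n = 8), between 35.7% and 71.4%. The acetyl-lysine reader BRD3 averaged 46.6% ± 16.1 (SD, n = 6), between 23.1% of 13 reads and 66.7% of 12.

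The genes grouped by name as remodellers had the most reads per measurement, a median of 56. They also had the smallest median distance from balance of the 7 groups, 4.41 points. Of 13 genes 11 were measured and 5 tested, with 0 called. Between 40% and 60% lay 39 of 48 measurements (81.25%), against 69.8% of all measurements, a difference that was not tested. Remodellers and demethylases were the only roles above that share. It was 64.9% for methyltransferases, 64.2% for deacetylases and corepressors, 55.7% for readers, 55.6% for acetyltransferases and 53.8% for DNA methylation genes. CHD5, a neuronal remodeller of the NuRD family, had the most reads of all the chromatin regulators, 2665. Daughter 2 had 47.3% of 237 reads, daughter 3 had 58% of 169, daughter 4 had 49.9% of 371, daughter 5 had 53.1% of 375 and daughter 6 had 47.8% of 1041. Daughter 7 had 45.7% of 46 reads, daughter 8 had 45.4% of 293, daughter 9 had 48.1% of 104 and daughter 10 had 44.8% of 29. The interval of daughter 3 alone, 50.5 to 65.2, excluded 50%, and the mean was 48.9% ± 4.25 (SD, n = 9), the smallest SD of the 31 tested genes.

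SMARCC2, a core BAF subunit, lay between 46.7% and 54.7% in 6 daughters, while daughter 1 had 35.7% of 14 reads. Every one of its 7 intervals included 50%. In daughter 6, with 795 reads, its share was 49.2% (45.7 to 52.7). CHD7, mutated in CHARGE syndrome, had 36.8% to 50%, with no daughter above 50% and a mean of 45.8% ± 4.76 (SD, n = 6). CHD8, an autism-associated remodeller, had 47.2% to 56.7% in 6 daughters and 12.5% of 16 reads in daughter 10 (3.5 to 36). SMARCE1, a BAF subunit, lay between 47.2% and 61.1% in 4 daughters, while daughter 3 had 40.4% of 104 reads (31.5 to 50).

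Several genes with values in fewer daughters were also measured deeply at least once. HDAC5, a class IIa deacetylase, was near balance in daughters 4 and 5, with 52.7% of 188 and 46.2% of 240 reads. It was farther from balance on few reads in daughters 3 and 10, with 23.5% of 17 and 76.9% of 13. SETD7, a lysine methyltransferase, had 53.6%, 47.1% and 47.5% in daughters 3, 5 and 6, each on 121 to 162 reads, and 40% of 20 in daughter 1. The Polycomb reader CBX7 had 45.3%, 51.4% and 53.1% in daughters 4, 5 and 9, CBX6 had 56.4% of 156 reads in daughter 8, and the heterochromatin protein CBX5 had 43.1% to 60.4% over 4 daughters. EZH1, the Polycomb methyltransferase kept in adult neurons, had 50% of 98 reads in daughter 5, its single measurement. SETD4 was far from balance on both sides, with 22.7% of 22 reads in daughter 5 (10.1 to 43.4), 84.6% of 13 in daughter 6 (57.8 to 95.7) and 57.6% of 33 in daughter 3. PHF20, a reader of methylated lysines, ran from 32.7% of 49 reads in daughter 3 (21.2 to 46.6) up to 66.7% of 18 in daughter 7.

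**Figure D2:**
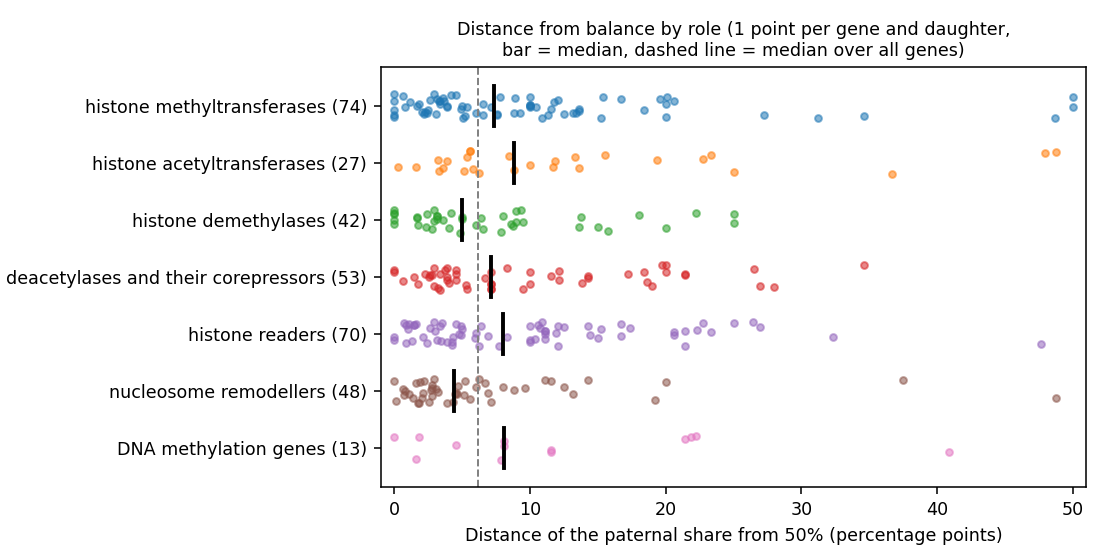
Distance of the paternal share from 50% (percentage points) for every measurement of a chromatin regulator, by role, with the number of measurements in brackets. Black bars are medians, from 4.41 points for remodellers and 5 for demethylases to 8.82 for acetyltransferases, and the dashed line is the median over all genes, 6.20.

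Distance from balance narrowed as reads grew. With 10 to 19 reads the median distance was 12.5 points for chromatin regulators and 11.1 for all genes. With 20 to 49 reads it was 6.90 and 7.78, and with 50 to 99 reads 6.67 and 5.91. At 50 to 99 reads 66.2% of the chromatin regulator measurements lay between 40% and 60%, against 73.5% of all genes. With 100 or more reads the median distance was 3.07 and 3.76. At that depth 65 of 69 measurements (94.2%) of chromatin regulators lay between 40% and 60%, against 86.8% of all genes. The 4 others were HDAC4 in daughter 8, PHF2 in daughter 5, EHMT1 in daughter 3 and the X-linked PHF8 in daughter 5. BRD7 in daughter 4, at 60%, KMT2C in daughter 4 and SETD3 in daughter 5, at 58.9% (52.2 to 65.3), came next on the paternal side. On the maternal side these were SMARCE1 in daughter 3, EP300 in daughter 10 and KDM5A in daughter 4.

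**Figure D3:**
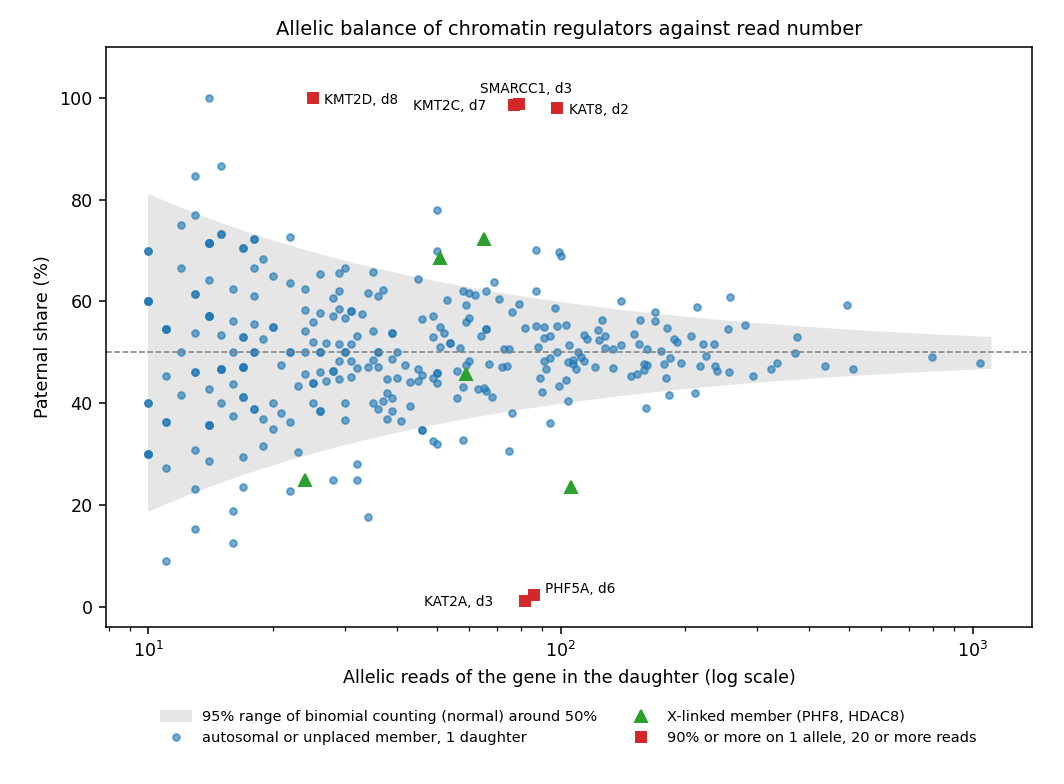
Paternal share (percent) of each chromatin regulator in each daughter against its allelic reads (log scale). The grey band is the range that binomial counting around 50% gives in 95% of cases. Most points fill the band, 6 measurements with 20 or more reads (red squares, d = daughter) lie beyond 90% on 1 allele, and 4 of the 69 measurements with 100 or more reads lie outside 40% to 60%.

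A few measurements came almost wholly from 1 allele. With 20 or more reads, 6 of 242 measurements (2.48%) had 90% or more of reads on 1 allele, 4 paternal and 2 maternal, against 1.60% over all genes. They were in 6 of 67 genes (8.96%), against 6.08% of all genes. At 20 or more reads these shares are close. With 50 or more reads there were 5 of 140 measurements (3.57%), against 206 of 14655 over all genes (1.41%). They were in 10.2% of chromatin regulators measured at that depth, against 4.59% of all genes. With 100 or more reads there were 0 of 69, against 63 of 8804 over all genes. None of these differences was tested.

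In 5 of these 6 genes, other daughters had reads from both alleles. KAT8, the H4K16 acetyltransferase of the MSL complex, had 96 paternal and 2 maternal reads in daughter 2, a share of 98% (92.9 to 99.4). Daughters 4, 6, 8 and 10 gave 51.6% of 221, 46.8% of 109, 44.2% of 43 and 61.7% of 60 reads, all with intervals that include 50%. Its mean was 60.4% ± 22 (SD, n = 5), and 51.1% ± 7.71 (SD, n = 4) without daughter 2. KMT2C had 76 paternal and 1 maternal reads in daughter 7 (93.0 to 99.8) and shares of 44.9% to 66.7% in the others.

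KMT2D, the close relative of KMT2C that is mutated in Kabuki syndrome, was on 1 allele in a pair of animals. All 25 reads in daughter 8 were paternal, where a maternal count of 0 allows a maternal share of up to 12%, and all 14 reads in daughter 7 were paternal, which allows up to 21.4%. Daughters 3, 5 and 10 had 46.7% of 45, 46.4% of 56 and 38.5% of 26 reads, and daughter 6 had 18.8% of 16, with an interval (6.59 to 43) below 50%. Daughters 7 and 8 share a labelled father, and daughter 1, by the same father, had fewer than 10 reads of KMT2D. The mean was 58.4% ± 33.8 (SD, n = 6), the largest SD of the 31 tested genes, and 37.6% ± 13.1 (SD, n = 4) without daughters 7 and 8.

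On the maternal side, KAT2A, the acetyltransferase of the SAGA complex, had 1 paternal and 81 maternal reads in daughter 3, a share of 1.22% (0.216 to 6.59). Daughter 2 had 25% of 32 reads (13.3 to 42.1) and daughter 4 had 46.7% of 92. PHF5A, a PHD-like zinc finger protein of the U2 splicing complex rather than a histone reader, had 2 paternal and 84 maternal reads in daughter 6, 2.33% (0.640 to 8.09), and 44% of 50 in daughter 2. SMARCC1, the partner of SMARCC2 in BAF complexes, was measured only in daughter 3, where 78 of 79 reads were paternal (98.7%, 93.2 to 99.8). No other daughter gives a value to set beside it.

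**Figure D4:**
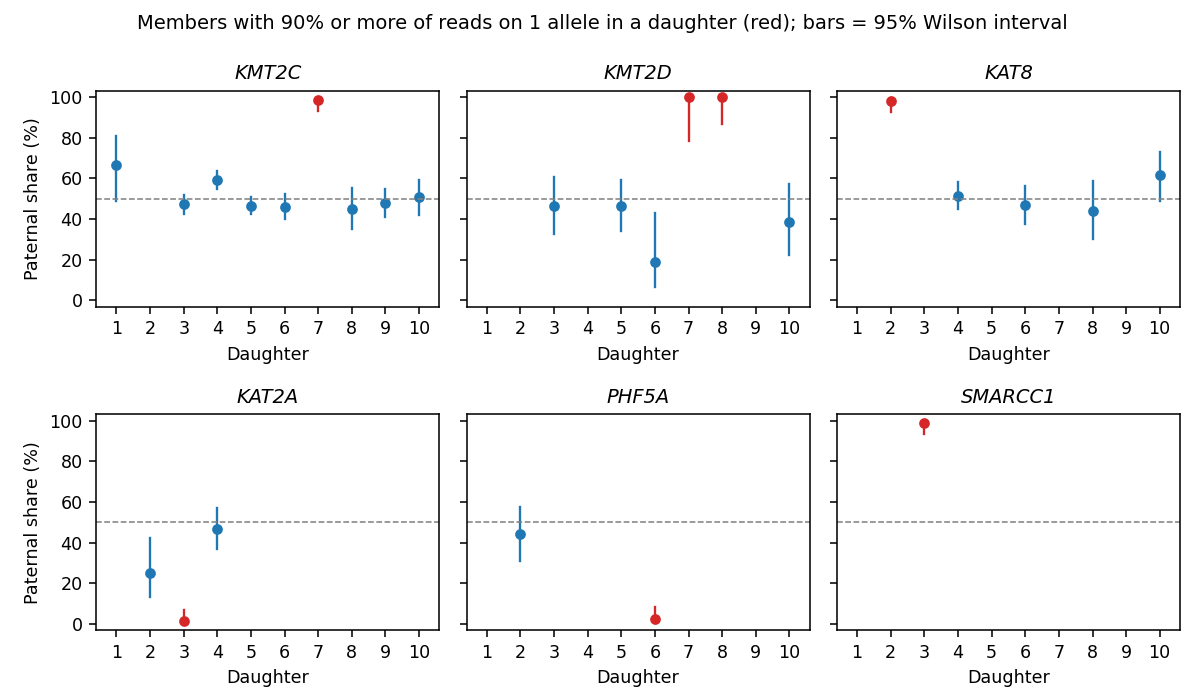
Paternal share (percent) with 95% Wilson intervals of the 6 genes with 20 or more reads and 90% or more of them on 1 allele in a daughter. Red marks 90% or more on 1 allele. KMT2C, KMT2D, KAT8 and SMARCC1 reach 98% to 100% and KAT2A and PHF5A fall to 1.22% and 2.33%, while blue points of KMT2C and KAT8 in other daughters lie between 44.2% and 66.7%.

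Most of the nearest genes with enough reads around these 6 had reads from both alleles in the same daughters. The 2 nearest genes on each side with 20 or more reads were taken by their order in the RefSeq assembly T2T-MFA8v1.1, which is not the build of the counts. Distance was not limited, so they need not be adjacent. Of these 24 measurements 20 lay between 40% and 60%. Over all genes, 74.5% of measurements with 20 or more reads did, and the difference was not tested. For KAT8 in daughter 2 they were RNF40 at 46.6%, BCKDK at 47.7%, GPT2 at 55% and NETO2 at 49.7%. For KMT2C in daughter 7 they were SLC4A2 at 53.8%, NUB1 at 41.0%, ACTR3B at 44.4% and DNAJB6 at 49.1%. The exception beyond 90% lay beside KMT2D in daughter 8, where SLC48A1 had 98% of 50 reads, while PFKM, which lies between them in that order, had 50.1% of 583. Also outside 40% to 60% was GHDC beside KAT2A in daughter 3, at 37.5% of 112 reads (29.1 to 46.7). So were FMNL3 beside KMT2D in daughter 8, at 35.3% of 34, and SLC38A3 beside SMARCC1 in daughter 3, at 38.1% of 21. The intervals of FMNL3 (21.5 to 52.1) and SLC38A3 (20.8 to 59.1) included 50%. KAT2A in daughter 3 and PHF5A in daughter 6 had neighbours that are chromatin regulators too. These were SMARCE1 at 40.4% (31.5 to 50) and EP300 at 55.4% (49.5 to 61.1).

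In female mammals 1 X chromosome is silenced in each cell, so the share of an X-linked gene in tissue is known to depend on how many cells silenced each parent's X. Of the 84 genes, 2 are X-linked, PHF8 and HDAC8. PHF8, a demethylase of H3K9, H3K27 and H4K20 that reads H3K4me3, had 72.3% of 65 reads in daughter 4, while daughter 5 had 23.6% of 106, daughter 6 had 45.8% of 59 and daughter 10 had 25% of 24. The medians over the 106 to 131 X-linked genes measured in these daughters, PHF8 included, were 73.6%, 27.6%, 44.4% and 29.6%, in the same order. The interval of PHF8 included the X-linked median in all 4, and the autosomal median was 50% in each. In daughters 4, 5 and 10 the interval of PHF8 (60.4 to 81.7, 16.5 to 32.5 and 12 to 44.9) excluded 50%. HDAC8, a class I deacetylase, had 68.6% of 51 reads in daughter 8 (55 to 79.7). Its interval lay above both the X-linked median of daughter 8, 53.1% over 62 genes, and the autosomal median of 50%.

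**Figure D5:**
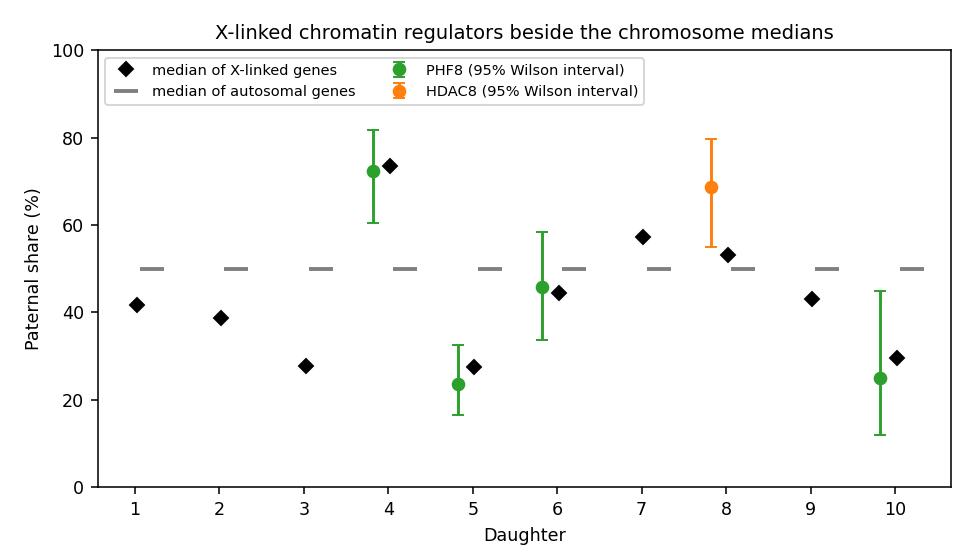
Paternal share (percent) of PHF8 and HDAC8 with 95% Wilson intervals in the daughters with 10 or more reads, beside the medians of all X-linked genes (black diamonds) and all autosomal genes (grey bars). PHF8 is above 50% in daughter 4 and below 30% in daughters 5 and 10, as the X-linked medians are, while autosomal medians are 50% in all 10 daughters.

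The spread of the 31 tested chromatin regulators, all of them autosomal or unplaced, between daughters was about that of other genes. The SD over daughters had a median of 10.0 points over the 31 tested genes and 9.53 over all 2981. The dispersion ratio, the chi-square of the counts around the gene's pooled share divided by its degrees of freedom, is 1 for counting error alone. Its median was 1.76 for chromatin regulators and 2.01 for all genes, and it was above 2 in 13 of 31 (41.9%), against 50.3% of all genes. It was highest for KAT8 at 19.4, KMT2C at 12.1 and KMT2D at 9.21. Without their single-allele daughters the ratios of these 3 genes were 1.44, 3.81 and 1.51. Those daughters were left out for their extreme shares, so lower ratios follow largely from that choice. CHD7 at 0.24, HDAC9 at 0.51 and SMARCC2 at 0.76 varied by no more than counting gives. The smallest SDs were those of CHD5, CHD7, KDM1B, PHF2 and SMARCC2, from 4.25 to 5.96 points.

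The number that begins each title, 10480 in daughters 7 to 10 and 10203 in daughters 1 to 6, is a label like a batch. The labels of the parents begin with such numbers too. Each of daughters 7 to 10 has a parent whose label begins with a number that no parent of daughters 1 to 6 carries. A difference between title prefixes therefore cannot be told apart from one between these parents. Of the 31 genes, 0 differed between prefixes (edgeR interaction, adjusted p = 1 at the smallest), where 0.0335% of all genes did (1 of 2981). DESeq2 called 0 genes. At an unadjusted p under 0.05 there were 2 of 31 by edgeR, against 3.56% of all genes, and 1 of 31 by DESeq2, against 2.38% of all genes (71 of 2981). EP300 averaged 41.4% ± 0.25 (SD, n = 2) in prefix 10480 and 54.2% ± 2.68 (SD, n = 4) in prefix 10203, and KDM2B averaged 30% ± 7.07 (SD, n = 2) in prefix 10480 and 50.5% ± 6.19 (SD, n = 4) in prefix 10203. Neither passed the threshold. Within prefix 10480, 0 of 32 chromatin regulators were called unequal between parents, against 0.0326% of all genes (1 of 3067). Within prefix 10203 it was 0 of 42, against 0% of all genes (0 of 3457). At an unadjusted p under 0.05 it was 0 of 32 and 0 of 42, against 2.64% and 3.59% of all genes.

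Daughters that share a labelled parent were compared gene by gene. Over the 5 pairs of this kind, a gene measured in both lay on the same side of 50% in 38 cases and on opposite sides in 41. Over the 40 other pairs it did so in 296 and 310 cases. Daughters 4 and 5, with the same father, had 41 genes in common, of which 15 lay on the same and 20 on opposite sides, the rest being at 50% in at least 1 of them. Daughters 6 and 10, with the same mother, had 31 in common, 16 on the same and 12 on opposite sides. The pairs overlap in daughters and genes, and no test was made.

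Partners of these proteins that the name rule does not cover were also measured. Of 162 genes on 3 lists (Polycomb and other writers, acetylation and corepressor partners, and remodeller and histone chaperone partners) 81 had a row. Of the 33 that could be tested 0 were called by edgeR, against 0% of all genes (0 of 2981). At an unadjusted p under 0.05 there was 1 of 33, against 3.12% of all genes. It was EP400, a remodeller ATPase, with a mean of 42.2% ± 10 (SD, n = 8, edgeR, adjusted p = 1). Of the 325 measurements of these lists 209 (64.3%) lay between 40% and 60%, against 69.8% over all genes. With 20 or more reads 2 of 252 (0.794%) lay beyond 90% on 1 allele, against 1.60% over all genes. The 2 were UBN2, a subunit of a histone chaperone, with 95.9% of 74 reads in daughter 6, and TBL1X. The X-linked corepressor subunit TBL1X had 91.9% of 86 reads in the same daughter. TBL1X averaged 54.8% ± 26.0 (SD, n = 8) and ranged from 20.6% to 91.9%. SIN3B, the scaffold of an HDAC complex, averaged 48.0% ± 3.77 (SD, n = 8), and the coactivator NCOA3 averaged 49.8% ± 10.6 (SD, n = 7). The H3K4 methylation subunit ASH2L averaged 49.7% ± 6.09 (SD, n = 8), JARID2 of the Polycomb complex PRC2 50.6% ± 6.85 (SD, n = 9) and the deubiquitinase BAP1 49.7% ± 5.77 (SD, n = 5). The remodeller subunits BAZ1B and RUVBL2 averaged 52.7% ± 5.46 (SD, n = 7) and 49.4% ± 8.02 (SD, n = 9), and the histone chaperone NAP1L4 had 44.4% and 50% in 2 daughters.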

How the data were processed

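The deposited table holds raw counts, whole numbers of reads per gene assigned to the maternal or paternal allele of each of 10 daughters. The reads were aligned by the authors with Novoalign, per the submitters' processing notes, and no version is given in the sources used here. The build is macFas5, per the file headers. Libraries were stranded, depleted of ribosomal RNA and sequenced as pairs over 101 cycles, per the labels' protocols. These also describe an antibody step on sonicated nuclei, while the molecule is labelled total RNA. The files do not show whether that step touched these libraries. Phasing, the positions counted and any filters are not given in the sources used here, so a wrongly phased or wrongly called position cannot be seen. Columns were matched to daughters by title.

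Paternal shares use 10 or more allelic reads, and calls of 90% on 1 allele use 20 or more. The edgeR 4.0.16 quasi-likelihood model (R 4.3.3), tested on simulated data, had the daughter as block, since both columns come from the same animal, with library sizes summed over both alleles. It was fitted on all 2981 genes that passed the read minimum, with Benjamini-Hochberg adjustment over them. DESeq2 1.42.0, limma 3.58.1 on log2 ratios with a pseudocount of 0.5, other read minimums and normalisations, a fit with no block, each prefix alone and leaving out each daughter were alternatives. Chromosomes came by symbol from the RefSeq assembly T2T-MFA8v1.1, which placed 81 of 84 genes, 2 of them on X. Wilson intervals and the limits for a count of 0 (3 reads) reflect counting alone, because PCR copies of a molecule cannot be told apart. Python 3.11.15, SciPy 1.17.1 and matplotlib 3.10.9 were used.

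The genes and lists were chosen with earlier results of these data known. Genes are named by rule: those called, those measured in all daughters, the 5 smallest p per direction, the 5 largest and 5 smallest SDs, the 10 with most reads, the measurements on 1 allele, the 5 per side farthest from 50% with 100 or more reads, the X-linked genes and up to 3 per role measured in most daughters. For the other lists these were called genes, measurements on 1 allele and up to 3 per list with most reads. CREBBP, KAT6A, SIRT3, EP400, HDAC5, SETD7, CBX5, CBX6, CBX7, EZH1, SETD4, PHF20 and the neighbouring genes fall outside the rule and were chosen after their values were seen. Results for 2 of the tested genes are left out of the text and the plots by gene, and counts over genes still include them.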

Additional observations from a re-analysis of the deposited data

Results flagged for a closer look

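In groups of 4 to 10 daughters, a value was marked when its gap to the nearest other was large for the range of the group (Dixon's 95% criterion). Among 42 chromatin regulators this marked 5 (11.9%), against 11.7% of all genes with values in 4 or more daughters (427 of 3646), a share close to theirs. For values of equal precision chance marks about 1 in 20, and the reads behind the values here differ widely. KMT2C in daughter 7 was the highest of 9, at 98.7% of 77 reads. CREBBP in daughter 10 was the highest of 4, at 86.7% of 15 reads. BRD9 in daughter 8 was the lowest of 9, at 17.6% of 34 reads, CHD8 in daughter 10 the lowest of 7, at 12.5% of 16, and SMARCC2 in daughter 1 the lowest of 7, at 35.7% of 14. CREBBP, CHD8 and SMARCC2 rested on 14 to 16 reads, and the interval of SMARCC2 (16.3 to 61.2) includes 50%. CREBBP and CHD8 were marked in the same daughter, 10, on opposite sides. What lies behind these values was not tested.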

How the results depend on the processing

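Under every alternative run, 0 chromatin regulators were called unequal between parents or between title prefixes. These include the fit with no replicate block (0 of 31) and the fits without each daughter. Over all genes, 2 were called between parents without the read filter, 1 within prefix 10480 and 0 to 1 without single daughters. Between prefixes the 1 call over all genes became 0 with DESeq2, 0 where each prefix needed 2 daughters with enough reads, and 0 to 2 without single daughters. The share of measurements between 40% and 60% was 80% with 50 or more reads and 94.2% with 100 or more, where the median distance from 50% was 3.07 points. Without single daughters that share was 64.2% to 68.1%, and the share of measurements on 1 allele 1.84% to 3.03%. The mean of HDAC10 was 58.3% with 20 or more reads, which left daughter 2 alone. Without the 6 measurements on 1 allele, an alternative chosen after seeing the data, 67.0% lay between 40% and 60%. Depth limits the precision: 85 of 327 measurements rest on 10 to 19 reads, and daughter 1 gives 3.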
